A study of Mus musculus with 34 samples.

Results

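Fetal livers lacking Rb1 and p130 (Rb1;p130 DKO) were compared with fetal livers lacking p107 and p130 (p107;p130 DKO), so that p130 was missing from both groups and the lost partner differed. The arrays were chosen by their titles, 9 of Rb1;p130 DKO and 6 of p107;p130 DKO, which makes 15 of the 34 arrays of the series. Total RNA of whole, unsorted, untreated mouse liver, was hybridised to one-colour Affymetrix arrays. Each sample is labelled as embryonic day 14.5, whereas the design text gives days 13.5 to 14.5 for the series, so the age may vary between arrays, and its part in the group differences was not tested. The other 19 arrays held 6 livers lacking all 3 genes (Rb1;p107;p130 TKO), 5 Rb1;p107 DKO, 2 Rb1 KO, 1 p107 KO, 3 p130 KO and 2 wild type livers. The p130 KO livers had kept both Rb1 and p107, and the TKO livers neither, so these genotypes show the level of a gene with both partners or none, p130 absent. The mutant alleles, the strain and any Cre driver are not given in the sources used here. Nothing in the labels says that the arrays came from separate fetuses, and every p-value therefore reflects variation among these arrays that may be technical.

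The pocket proteins Rb1, p107 (encoded by Rbl1) and p130 (encoded by Rbl2) bind E2F transcription factors and hold back the genes of S phase entry until cyclin-dependent kinases (CDKs) phosphorylate them. Rb1 binds mainly the activating E2Fs, whereas p107 and p130 bind mainly the repressing E2Fs and, with the MuvB core proteins, form the DREAM complex that silences cell cycle genes in resting cells. Fetal liver is the main site of red cell production at this stage, and Rb1 is known for its part in the last divisions and the maturation of erythroblasts.

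The median signal per array was 83 to 113 in Rb1;p130 DKO livers and 85.2 to 106.5 in p107;p130 DKO livers. Red cell and liver markers were bright on all 15 arrays: Klf1 had a signal of at least 17230 and Alb of at least 25680. Among the lymphoid markers, Cd3e reached a signal of 100 on 1 of the 15 arrays and Rag1 on 6. Array 9 of the Rb1;p130 DKO group had the lowest median correlation with the other arrays of both groups together (r = 0.948 across genes, which are not independent replicates), followed by array 8 at 0.961. The other 7 Rb1;p130 DKO arrays ran from 0.962 to 0.976. Xist marked 5 of 9 Rb1;p130 DKO arrays and 1 of 6 p107;p130 DKO arrays, and Y-linked genes marked the others. Clustering by how 2 probe sets of the same gene read against each other put the Rb1;p130 DKO arrays 5, 0 and 4 into 3 array groups, and the p107;p130 DKO arrays 3, 2 and 1. No label records these array groups, which come from the signals alone. Sex and array group were added to the fit as alternatives, and their part in the results beyond those fits was not tested.

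The targeted genes followed the labels. Rb1 had signals of 756, 1391 and 1746 (lowest, median and highest array) in livers lacking Rb1 and p130, against 5208, 6332 and 8035 in livers lacking p107 and p130. The arrays did not overlap, and the log2 difference, Rb1;p130 DKO minus p107;p130 DKO throughout, was -2.19 ± 0.16 (SE, limma adjusted p = 1.62e-11). A signal remained in the Rb1;p130 DKO livers, and where this probe set lies relative to the deleted part is not given in the sources used here. Rbl1, the gene of p107, had signals of 1306, 2414 and 2713 in livers lacking Rb1 and p130, against 43.93, 68.87 and 118.4 in livers lacking p107 and p130. It was higher on every Rb1;p130 DKO array, by 4.31 ± 0.18 on the log2 scale (adjusted p = 2.55e-18). Rbl2, lost in both groups, had a median signal of 200.3 in livers lacking Rb1 and p130 and 203.2 in livers lacking p107 and p130, and the arrays overlapped (log2 difference 0.17 ± 0.17, adjusted p = 0.80). In the genotypes that have p130 its signals were 246.2 to 481.3, which overlap those of both groups at their lower end. A second Rbl1 probe set had a median signal of 417.8 in livers lacking Rb1 and p130 and 30.16 in livers lacking p107 and p130. The remaining, dim Rbl1 probe sets had 58.96 and 6.842, against 27.7 and 30.99. A second, dim Rb1 probe set had 40.18 in livers lacking Rb1 and p130 and 21.29 in livers lacking p107 and p130. A second, dim Rbl2 probe set had 117.3, against 82.3. Its signals reached 150.4 and 111.9 in these groups, and were 123.4 to 240.8 in the genotypes that have p130. The plot of pocket protein genes shows the signals of the brightest probe sets with those of the TKO and p130 KO livers.

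**Figure D1:**
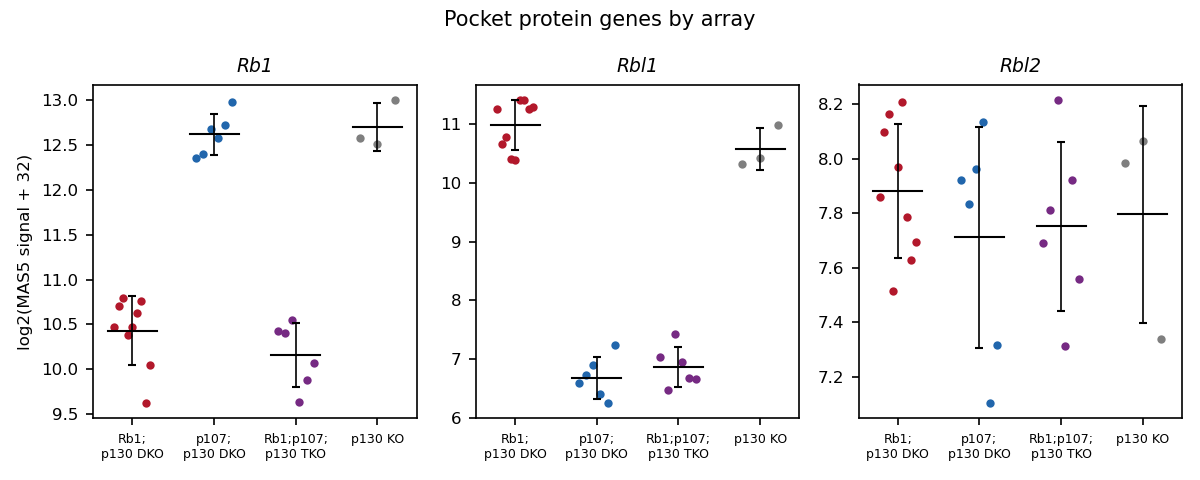
Signals of Rb1, Rbl1 (p107) and Rbl2 (p130) on the log2(signal + 32) scale in Rb1;p130 DKO, p107;p130 DKO, Rb1;p107;p130 TKO and p130 KO livers. Points are arrays, horizontal lines are means and bars are SDs; Rb1 is low in the genotypes lacking Rb1, Rbl1 is low in those lacking p107, and Rbl2 overlaps in all 4.

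Across the 12719 genes tested, 95 were called at an adjusted p under 0.05, which is 0.747% of the genes. Most were higher without Rb1: 75 genes were higher in livers lacking Rb1 and p130 (0.59% of the genes tested) and 20 were lower (0.157%). The differences were small, with a median size of 0.61 on the log2 scale, and 14 of the 95 reached 2-fold. Without the targeted genes, the called genes numbered 74 higher and 19 lower. In 36 of the 95 the 2 genotypes' arrays did not overlap, against 56 (0.44%) of all genes tested. The call was kept in each of the 15 fits that left out 1 array for 43 of the 95 genes. The number called was 54 without array 5 of the p107;p130 DKO group, 58 without its array 6, 62 without its array 2 and 143 without array 9 of the Rb1;p130 DKO group. With array group as a block 210 genes were called (1.65%), of which 89 were among the 95, and with sex as a covariate 75, of which 74 were. With both, 141 were called (1.11%), of which 71 were among the 95. All 95 kept their sign in these 3 fits. Within the first array group, with 5 Rb1;p130 DKO arrays against 3 of p107;p130 DKO, the 95 also kept their sign and 41 of them were called. Within the third, with 4 arrays against 1, 94 kept their sign. All of these fits reuse arrays that chose the 95 genes, so a kept sign was nearly fixed beforehand and gives no separate support.

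**Figure D2:**
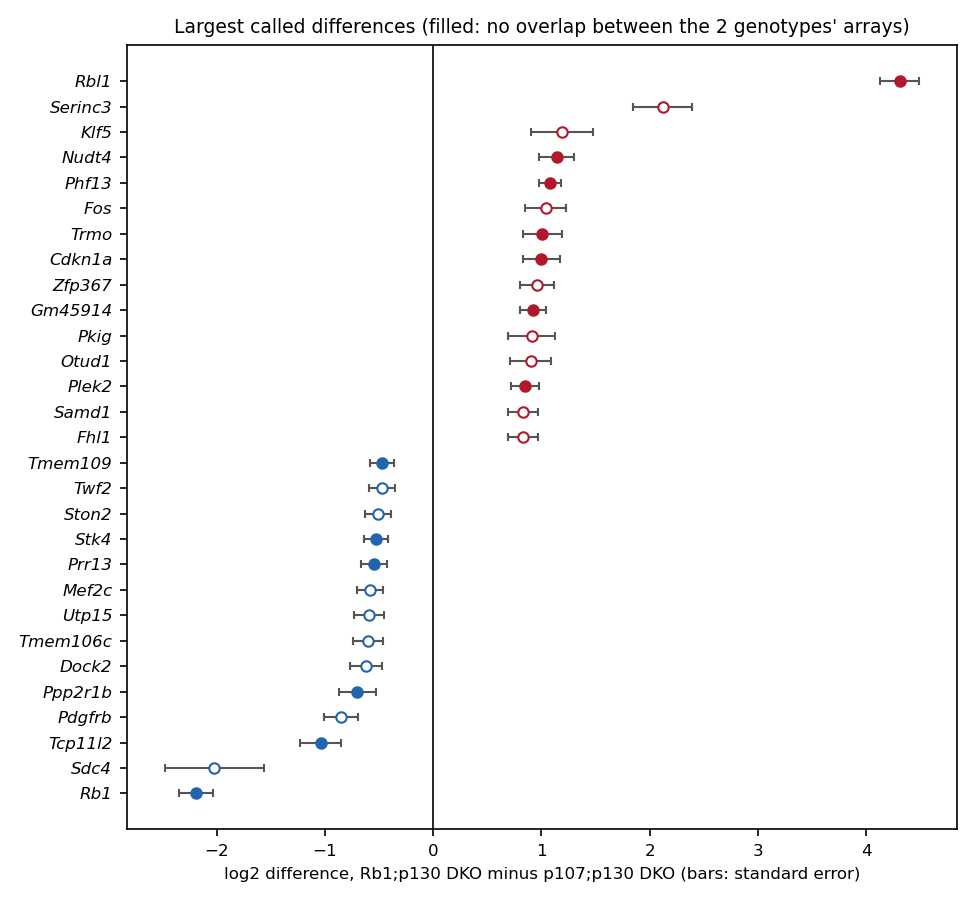
Log2 differences of the 15 largest rises and the 14 falls, all called and averaging 8 or more on the log2 signal scale, Rb1;p130 DKO minus p107;p130 DKO, with standard errors as bars. Filled points mark genes whose arrays do not overlap between the genotypes; apart from the targeted genes, most differences lie within 1.2 on either side of 0, with Serinc3 at 2.12 and Sdc4 at -2.02 beyond that.

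The products of CDK inhibitor genes brake the kinases that inactivate pocket proteins. Of 5 tested, 2 rose and none fell, and their median log2 difference was 0.55, against -0.008 over all genes tested. The counts of called members, here and in the lists below, stand against 0.59% of all genes called higher and 0.157% called lower. Cdkn1a, an inhibitor induced by p53, had signals of 361.3, 461.6 and 660.2 in livers lacking Rb1 and p130, against 129.5, 229.4 and 276.3 in livers lacking p107 and p130. No array overlapped, and the log2 difference was 1.00 ± 0.17 (adjusted p = 0.00128). Cdkn2c, an inhibitor of the cyclin D kinases Cdk4 and Cdk6, had signals of 3036, 3610 and 5023 in livers lacking Rb1 and p130, against 1983, 2377 and 3175 in livers lacking p107 and p130. The arrays overlapped at their edges, and the difference was 0.63 ± 0.12 (adjusted p = 0.00428). Cdkn2d, of the same inhibitor family, missed the threshold at 0.50 ± 0.13 (adjusted p = 0.0568) and passed it without array 9 of the Rb1;p130 DKO group (0.61, adjusted p = 8.54e-04). Cdkn1c, an imprinted inhibitor, had a difference of -0.62 ± 0.18 (adjusted p = 0.118) and was likewise called without that array (-0.76, adjusted p = 0.00441), on which its signal was 5186, against 1852 to 2638 on the other 8.

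Among the 10 E2F and DP transcription factor genes, 1 rose and none fell (median 0.15). E2f1, an activating E2F that Rb1 binds, had signals of 1250, 1715 and 2010 in livers lacking Rb1 and p130, against 952.9, 1113 and 1269 in livers lacking p107 and p130. Array 9 alone, the lowest of the Rb1;p130 DKO group, met the lower range, and the difference was 0.54 ± 0.11 (adjusted p = 0.00873). E2f8, a repressing E2F, had a difference of 0.43 ± 0.14 (adjusted p = 0.154), and E2f4, the main partner of p107 and p130, one of 0.02 (adjusted p = 0.989).

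Of the 7 MuvB core and partner genes, Mybl2 alone was called (list median 0.05). Mybl2, a transcription factor that joins MuvB at genes of the G2 phase, had signals of 1836, 2296 and 3393 in livers lacking Rb1 and p130, against 1333, 1508 and 1669 in livers lacking p107 and p130. The arrays did not overlap (0.70 ± 0.12, adjusted p = 0.00142). Foxm1, another partner, had a difference of -0.04 (adjusted p = 0.968). Among 10 genes of G1 and S phase cyclins and kinases, Ccne1, which encodes a cyclin that activates Cdk2, was the 1 called (list median 0.15). Its signals were 3329, 3605 and 4150 in livers lacking Rb1 and p130, against 2298, 2640 and 3030 in livers lacking p107 and p130, again without overlap (0.49 ± 0.09, adjusted p = 0.00152). Cdk2 missed the threshold at 0.40 (adjusted p = 0.0677). Within the first array group alone, E2f1, Mybl2 and Ccne1 had differences of 0.53, 0.68 and 0.46 and were not called (adjusted p = 0.122, 0.0524 and 0.0651).

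None of 34 DNA replication genes was called, their median was 0.06 and their differences ran from -0.35 to 0.27, while 2 reached an unadjusted p under 0.05 upward and 1 downward, against 9.73% of all genes in either direction. The replicative helicase genes Mcm2 to Mcm7 lay between -0.09 and 0.06. Of 29 mitosis and spindle genes, 1 rose and none fell (median 0.09), while 6 were higher and 0 lower at an unadjusted p under 0.05, against 5.18% of all genes higher and 4.54% lower. The called gene, Prc1, which bundles microtubules of the central spindle, had signals of 3773, 4720 and 5195 in livers lacking Rb1 and p130, against 3323, 3503 and 4064 in livers lacking p107 and p130. The arrays overlapped at the edge (0.37 ± 0.08, adjusted p = 0.0144), and the call ended without array 2 or array 5 of the p107;p130 DKO group, with an adjusted p of up to 0.0529.

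Promoters were searched for the E2F words TTTCCCGC, TTTGGCGC, TTTCGCGC and TTTGCCGC on both strands, in the 300 bases that RefSeq promoters span from 250 before to 50 after a start, with the first listed promoter of each gene. Such a word stood in 5 of 65 promoters of genes that rose (7.69%), in 1 of 13 of genes that fell (7.69%) and in 426 of 10281 of all genes tested (4.14%). The CHR words TTTGAA and TTCGAA, a MuvB element, were in 15.4%, 7.69% and 13.8%. A word is a description of letters and does not show that a factor binds. The promoters of E2f1, Mybl2, Ccne1, Cdkn1a, Cdkn2c and Phf13, which also rose, hold none of the E2F words. Zfp367, a zinc finger factor, Trmo, a tRNA methyltransferase, and Cenpl, a centromere protein chosen after its values were seen, rose and hold a word. Their promoters are shown from 110 bases before to 10 after the start, 5′ to 3′ on the gene's strand, in RefSeq coordinates of GRCm38.p6, with the words in capitals. Zfp367 (chr13:64153190-64153309, minus strand) and Cenpl (chr1:161070657-161070776, plus strand) hold 2 words each, and Trmo (chr4:46389414-46389533, minus strand) holds 1.
Zfp367: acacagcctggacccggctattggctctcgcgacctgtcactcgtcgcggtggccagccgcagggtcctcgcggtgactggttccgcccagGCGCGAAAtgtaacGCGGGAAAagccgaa
Cenpl: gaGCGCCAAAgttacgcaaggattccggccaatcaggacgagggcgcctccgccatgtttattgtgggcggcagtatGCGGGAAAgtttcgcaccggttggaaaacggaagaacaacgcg
Trmo: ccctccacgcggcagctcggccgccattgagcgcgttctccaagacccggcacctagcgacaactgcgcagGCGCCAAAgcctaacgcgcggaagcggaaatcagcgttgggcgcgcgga

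Zfp367 had signals of 2054, 4335 and 4711 in livers lacking Rb1 and p130, against 1643, 1915 and 2344 in livers lacking p107 and p130. Array 9 of the Rb1;p130 DKO group alone entered the lower range, and the difference was 0.96 ± 0.16 (adjusted p = 6.72e-04). Trmo, which methylates tRNA, had signals of 748.9, 999.5 and 1397 in livers lacking Rb1 and p130 and 306.5, 509.5 and 668.3 in livers lacking p107 and p130. It did not overlap between the groups (1.01 ± 0.18, adjusted p = 0.00127). Cenpl rose by less, 0.41 ± 0.09 (adjusted p = 0.0139), and its call ended without array 5 of the p107;p130 DKO group.

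Of 16 immediate-early genes, which cells switch on within minutes of a stimulus, 3 rose and none fell (median 0.10). With sex or array group in the fit this median was 0.05, and with both it was -0.02. Fos, a subunit of the AP-1 factor, had signals of 186.1, 416.2 and 556.0 in livers lacking Rb1 and p130, against 124.2, 176.9 and 222.7 in livers lacking p107 and p130. A single Rb1;p130 DKO array, array 9, lay within the lower range (1.04 ± 0.19, adjusted p = 0.00162). Dusp1, a phosphatase that turns off MAP kinases, had signals of 5425, 7121 and 8266 in livers lacking Rb1 and p130, against 3449, 4073 and 4492 in livers lacking p107 and p130. There was no overlap (0.74 ± 0.10, adjusted p = 5.75e-05). Klf10, a repressor induced by TGF-beta, also rose without overlap (0.70 ± 0.12, adjusted p = 0.00152). The other members stayed short of the threshold, among them Jun at 0.12 (adjusted p = 0.926), Egr1 at -0.19 (0.772) and Myc at -0.15 (0.759). Of 15 p53 targets, Cdkn1a was the 1 called (median 0.19). The list median was 0.06 with array group in the fit and 0.0 with array group and sex. Bbc3, a BCL2 family protein that promotes cell death, had a larger difference of 1.14 ± 0.30 that missed the threshold (adjusted p = 0.0588), as did Trp53inp1 at 0.86 ± 0.22 (0.0513). Mdm2, the ubiquitin ligase that degrades p53, had a difference of 0.27 (0.601).

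Phf13, a reader of methylated histone H3, was the gene with the smallest adjusted p after Rb1 and Rbl1. Its signals were 673.5, 874.0 and 977.8 in livers lacking Rb1 and p130, against 331.4, 370.2 and 445.0 in livers lacking p107 and p130. The groups stood well apart, with a difference of 1.08 ± 0.10 (adjusted p = 2.59e-08). Nudt4, which removes phosphate from inositol pyrophosphates, had signals of 11830, 15000 and 19030 in livers lacking Rb1 and p130, against 5955, 6516 and 7644 in livers lacking p107 and p130. It too showed no overlap (1.14 ± 0.16, adjusted p = 5.75e-05), and another bright Nudt4 probe set differed by 0.54. Plek2, a pleckstrin protein needed for enucleation of mouse erythroblasts, had signals of 2873, 3262 and 4238 in livers lacking Rb1 and p130, against 1519, 1748 and 2741 in livers lacking p107 and p130. The groups again did not overlap (0.85 ± 0.13, adjusted p = 2.29e-04).

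Among the other large rises, Gm45914, a gene with a model name only, rose without overlap (0.92 ± 0.12, adjusted p = 1.82e-05). Samd1, a protein that binds unmethylated CpG islands, rose by 0.83 ± 0.14 (8.11e-04), and Fhl1, a LIM domain protein on the X chromosome, by 0.83 ± 0.14 (6.72e-04), both with overlapping arrays. Otud1, a deubiquitinase on chromosome 2 but far from Rbl1, rose by 0.90 ± 0.19 (0.0117). Klf5, a zinc finger factor, had signals of 118.3, 499.8 and 771.8 in livers lacking Rb1 and p130, against 111.5, 163.6 and 185.2 in livers lacking p107 and p130. The 5 arrays of the first array group had 499.8 to 771.8 and the other 4 had 118.3 to 291.8, of which array 9 lay within the lower range. Its call was fragile (1.19 ± 0.29, adjusted p = 0.0375): it ended in 11 of 15 fits that left out 1 array, with an adjusted p of up to 0.0967, and with sex as a covariate (0.101), whereas within the first array group the difference was 1.69.

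Genes lower in livers without Rb1 were fewer. Of the 14 that were called and averaged 8 or more on the log2 scale, all of them named, 5 kept the call in each of the 15 fits that left out 1 array: Rb1, Tcp11l2, Pdgfrb, Mef2c and Stk4. Of the 70 rises as bright, 36 did, and whether these shares differ was not tested. Tcp11l2, listed here with late red cell genes, had signals of 1119, 1300 and 1884 in livers lacking Rb1 and p130, against 2031, 2753 and 4205 in livers lacking p107 and p130. No array overlapped (-1.04 ± 0.19, adjusted p = 0.00246). Pdgfrb, the PDGF receptor of stellate and other mesenchymal cells, had signals of 258.4, 350.1 and 667.3 in livers lacking Rb1 and p130, against 516.0, 753.7 and 989.7 in livers lacking p107 and p130. Array 9, at 667.3, had the highest value of the Rb1;p130 DKO group, and the ranges overlapped (-0.85 ± 0.16, adjusted p = 0.00428), and within the first array group the difference was -0.72 and not called (0.117). Mef2c, a transcription factor of muscle, endothelial and blood cells, fell by 0.58 ± 0.12 (adjusted p = 0.00764), with medians of 585.1 in livers lacking Rb1 and p130 and 919.9 in livers lacking p107 and p130 and overlapping arrays.

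Apart from Sdc4 and Stk4, which lie on chromosome 2 and are described with it, the other 8 named falls each lost the call in some of the fits without 1 array. They were Ppp2r1b, a scaffold subunit of protein phosphatase 2A (-0.70, adjusted p = 0.0299), Dock2, an activator of Rac in blood cells (-0.62, 0.0463), Tmem106c (-0.60, 0.0232), Utp15, a factor of ribosomal RNA processing (-0.59, 0.035), Prr13 (-0.55, 0.0182), Ston2, an endocytic adaptor (-0.51, 0.035), Twf2, an actin-binding protein (-0.47, 0.0494), and Tmem109 (-0.47, 0.0407). Without 1 array the adjusted p reached 0.105 for Ppp2r1b, 0.136 for Dock2, 0.0838 for Tmem106c, 0.129 for Utp15, 0.077 for Prr13, 0.096 for Ston2, 0.188 for Twf2 and 0.18 for Tmem109. Dock2, Twf2 and Tmem109 also lost the call with sex or with array group in the fit, Utp15 with sex and Ston2 with array group.

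Of 17 genes of late red cell remodelling, 1 rose and 1 fell (median -0.15). At an unadjusted p under 0.05, 7 were lower and 1 higher, against 4.54% of all genes lower and 5.18% higher. Beside Tcp11l2, the member that passed was Mxi1, a MAX-binding repressor, with signals of 3180, 4632 and 5633 in livers lacking Rb1 and p130 and 2225, 2907 and 3506 in livers lacking p107 and p130 (0.59 ± 0.13, adjusted p = 0.0119). Its arrays overlapped at the edge, and the call ended without array 1 of the p107;p130 DKO group (0.0589). Xpo7, an exportin that acts in red cell nuclear condensation, had a difference of -0.52 ± 0.14 (adjusted p = 0.0818). Bpgm, the enzyme that makes the haemoglobin ligand bisphosphoglycerate, had one of -0.45 ± 0.13 (0.119), although its arrays did not overlap. Epor, the erythropoietin receptor, had a difference of -0.51 ± 0.14 (0.0922). None of 16 red cell transcription factors, 11 heme synthesis genes or 18 membrane and skeleton genes was called, and their medians were 0.01, 0.10 and 0.09. At an unadjusted p under 0.05, 6 of the 18 membrane and skeleton genes were higher and 0 lower, against the same 5.18% and 4.54% of all genes. Gata1 had a difference of 0.06 (adjusted p = 0.91) and Klf1 of 0.11 (0.848). Of 19 hypoxia-response genes 1 rose, Kdm3a, a histone demethylase (0.58 ± 0.14, adjusted p = 0.0396), whose call ended in 10 of the 15 fits without 1 array (up to 0.123).

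Markers of other cells in the liver were compared to show what else differed between the samples. In whole tissue, fewer cells of a type and less RNA per cell cannot be told apart. Of all 12719 genes tested, 6612 were lower and 6107 higher, and the members of a list are not independent of each other. All 15 stem and progenitor genes were lower in livers lacking Rb1 and p130, none of them called, with differences of -0.53 to -0.09 and a median of -0.24. Their mean level per array ran from 8.079 to 8.462 (log2) in livers lacking Rb1 and p130 and from 8.484 to 8.594 in livers lacking p107 and p130, without overlap. The mean levels of the pocket protein, CDK inhibitor and G1 and S cyclin lists did not overlap between the groups either. Of 17 stellate and mesenchymal genes 14 were lower and 1, Pdgfrb, was called (median -0.17). The mean level of these 17 ran from 9.402 to 10.5 in livers lacking Rb1 and p130 and from 9.661 to 10.25 in livers lacking p107 and p130. Des did not reach a signal of 100 on 6 of the 15 arrays. Of 17 hepatocyte genes 15 were higher (median 0.11), and of 14 neutrophil granule genes 12 were (median 0.22). None was called, and the ranges of their mean levels overlapped, at 12.28 to 12.75 in livers lacking Rb1 and p130 and 12.11 to 12.78 in livers lacking p107 and p130 for hepatocytes, and for granule genes at 10.46 to 12.03 with Rb1 and p130 absent and 10.93 to 11.42 with p107 and p130 absent. No macrophage, megakaryocyte, mast cell, lymphoid or endothelial gene listed was called, with medians of -0.05, -0.10, -0.09, -0.19 and 0.07. The part of cell make-up in the called genes was not tested.

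The p130 KO and TKO livers were used to place the called genes. The mean of each genotype was placed between the 2 double knockouts, with 0 at p107;p130 DKO and 1 at Rb1;p130 DKO. For 62 of the 93 called genes other than Rb1 and Rbl1 (66.7%), the p130 KO mean, with both partners present, lay nearer to p107;p130 DKO and the TKO mean, with both absent, nearer to Rb1;p130 DKO, the order seen where the level goes with Rb1. This order was found in 28% of all genes tested. The opposite order, in which the level goes with p107, was found in 15 of the 93 (16.1%), against 27.6% of all genes. Genes that rose had the first order in 54 of 74 cases and the opposite in 9, and genes that fell in 8 and 6 of 19 cases. These places use the 2 double knockouts that also chose the genes, and no test was made of them.

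Cdkn1a, Cdkn2c, Phf13, Fos, Zfp367, Klf10 and Tcp11l2 were examples of the first order. The p130 KO mean lay at -0.04 for Phf13, at -0.01 for Cdkn2c and at 0.02 for Fos, and their TKO means at 1.00, 1.08 and 1.14. Tcp11l2, which fell, had the p130 KO mean at -0.36 and the TKO mean at 1.29. E2f1 had the first order too, with the p130 KO mean at 0.18 and the TKO mean at 0.87. Mybl2 and Ccne1 had the opposite order: the p130 KO mean lay at 0.68 and 0.83, and the TKO mean at 0.42 and 0.06. In signals, the medians of Ccne1 were 3605 in Rb1;p130 DKO, 2640 in p107;p130 DKO, 2666 in TKO and 3206 in p130 KO livers. Pdgfrb and Mef2c showed the opposite order too, with p130 KO means at 0.79 and 0.75 and TKO means at 0.18 and 0.15. The plot of 8 called genes by array shows both orders.

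**Figure D3:**
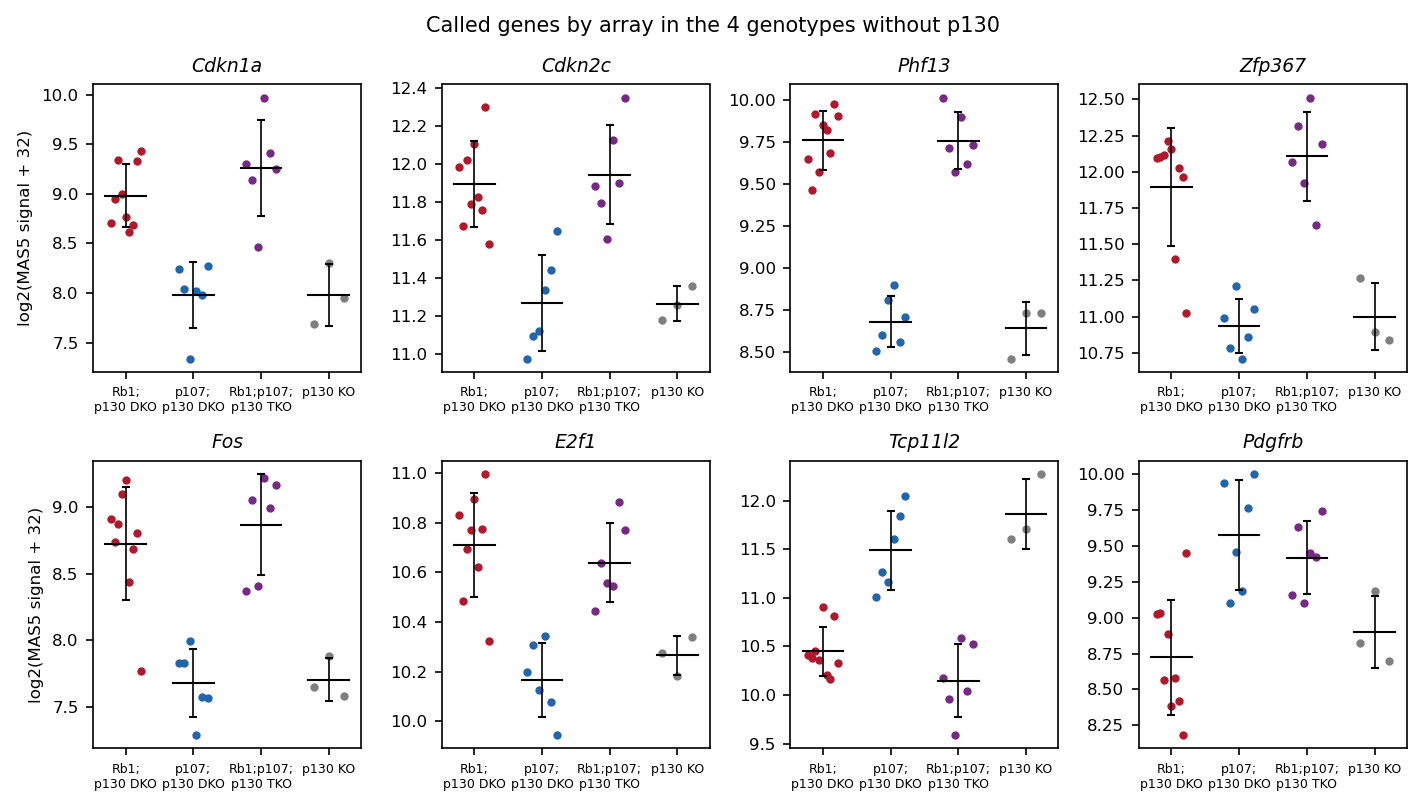
Signals of 8 called genes on the log2(signal + 32) scale in Rb1;p130 DKO, p107;p130 DKO, Rb1;p107;p130 TKO and p130 KO livers. Points are arrays, lines means and bars SDs; for all but Pdgfrb the TKO arrays lie near the Rb1;p130 DKO arrays and the p130 KO arrays near the p107;p130 DKO arrays, and for Pdgfrb the p130 KO arrays lie near Rb1;p130 DKO.

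Set against p130 KO livers in the same fit, each double knockout had few called genes, and both comparisons share the same 3 p130 KO arrays. Rb1;p130 DKO minus p130 KO had 15 called genes (0.118%) and p107;p130 DKO minus p130 KO had 3 (0.0236%). Phf13 was 1.12 ± 0.13 higher in Rb1;p130 DKO than in p130 KO livers (adjusted p = 4.79e-06), and 0.04 ± 0.14 in p107;p130 DKO livers (0.999). Tcp11l2 was lower in Rb1;p130 DKO livers, with a log2 difference of -1.41 ± 0.24 (0.00511), and -0.37 ± 0.26 in p107;p130 DKO livers (0.999). Cdkn1a had a difference of 1.00 ± 0.22 in Rb1;p130 DKO livers (0.0574) and 0.00 ± 0.23 in p107;p130 DKO livers (1). For Pdgfrb they were -0.18 ± 0.21 in Rb1;p130 DKO livers (1) and 0.67 ± 0.22 in p107;p130 DKO livers (0.97).

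The same question was asked of the 19 arrays that were in neither group, with terms for loss of Rb1, p107 and p130 that were assumed to add up. The Rb1 term called 29 genes (0.228%, with 7.59% at an unadjusted p under 0.05), the p107 term 16 (0.126%) and the difference of the terms 4 (0.0314%). Of the 74 genes that rose, 71 (95.9%) had a positive Rb1 term, where 64.3% of all genes tested had an Rb1 term of the same sign as their difference. 14 of them were called: Cdkn1a, Cdkn2c, Cenpl, Dusp1, Fos, Gm45914, Mxd3, Otud1, Pcgf5, Pdzk1ip1, Phf13, Plek2, Plekhf2 and Zfp367. Loss of Rb1 went with 0.94 ± 0.14 for Phf13 (adjusted p = 0.00512), 1.17 ± 0.18 for Zfp367 (0.00539), 1.03 ± 0.22 for Cdkn1a (0.0423) and 0.73 ± 0.15 for Cdkn2c (0.034). The p107 terms of these 4 genes were 0.08, 0.02, 0.38 and 0.00, none called.

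Of the same 74 genes, 49 (66.2%) had a negative p107 term, against 62.2% of all genes with a p107 term opposite to their difference, and 1 was called, Serinc3. Loss of p107 and array group were not balanced in these arrays. Of arrays lacking p107, 4 of 5 Rb1;p107 DKO, 2 of 6 TKO and the 1 p107 KO lay in the second array group. Of those with p107, 1 of 2 wild type, 0 of 3 p130 KO and 0 of 2 Rb1 KO arrays did. Y-linked genes marked the 2 Rb1 KO arrays and Xist the 3 p130 KO arrays. With array group as a block, 63 of the 74 (85.1%) had a negative p107 term, against 58.8% of all genes, and the difference of the terms called 3 of the 74, Cdkn2c, Nudt4 and Zfp367. Of the 19 genes that fell, 16 (84.2%) had a negative Rb1 term and 16 a positive p107 term. Tcp11l2 was called for the Rb1 term (-1.5 ± 0.25, adjusted p = 0.0122) and Pdgfrb for the p107 term (0.83 ± 0.16, 0.0446). No p107 term was called among these 19 with array group as a block, nor without the p107 KO array, array 2 of the Rb1 KO group, array 2, 3 or 4 of the Rb1;p107 DKO group, array 1 of the p130 KO group or array 1 of the wild type group. No Rb1 term was called among them without either Rb1 KO array or without the p107 KO array. For Mef2c the p107 term was 0.55 ± 0.13 (0.106). For the 74 rises, leaving out 1 array of any genotype but TKO changed the calls more than the direction. Between 67 and 71 of the 74 then had a positive Rb1 term, but 0 were called without the p107 KO array, 0 without array 2 of the Rb1 KO group, 1 without its array 1, 7 without array 2 of the wild type group, 8 without array 1 of the p130 KO group and 9 without array 3 of the Rb1;p107 DKO group. The plot of the Rb1 and p107 terms shows the 93 genes.

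**Figure D4:**
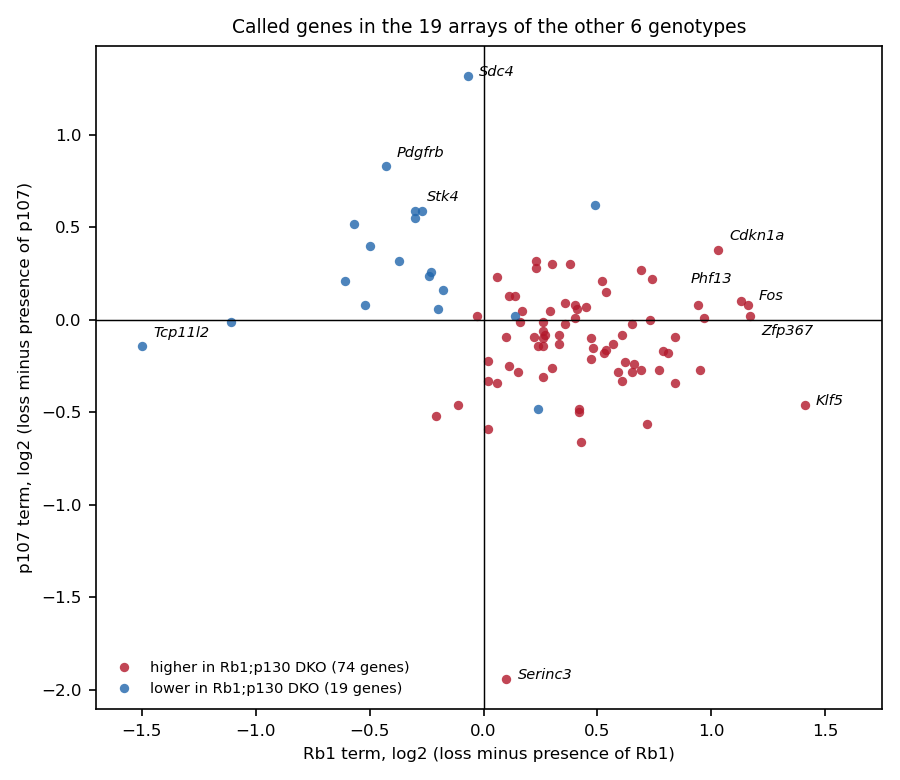
Rb1 term (horizontal) and p107 term (vertical), log2, from the additive fit to the 19 arrays of the other 6 genotypes, for the 74 genes that rose (red) and the 19 that fell (blue) in Rb1;p130 DKO against p107;p130 DKO livers. Red points spread to the right along an Rb1 term of up to 1.41, apart from Serinc3 with a p107 term of -1.94, and blue points lie mostly to the upper left.

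Genes that lie on the same chromosomes as the targeted genes were looked at separately. Among the 25 tested genes on either side, 0 of 50 were called around Rb1, 0 of 50 around Rbl1 and 1 of 50 (2%) around Rbl2, against 0.747% of all genes. At an unadjusted p under 0.05 there were 9, 4 and 5 of 50, against 9.73% of all genes. The 1 called near Rbl2 was Siah1a, a ubiquitin ligase 14 tested genes away (0.42 ± 0.10, adjusted p = 0.0267), whose call ended in 6 of the 15 fits without 1 array (up to 0.084). Beyond that window, and chosen after their values were seen, Mzt1 and Klf5 stood 36 and 40 tested genes from Rb1. On chromosome 2, Mybl2, Serinc3, Pkig, Gm16316, Stk4 and Sdc4 stood 29, 39, 40, 41, 47 and 52 tested genes from Rbl1 on one side, and E2f1 48 on the other. In all, 11 of the 1014 genes tested on chromosome 2 other than Rbl1 were called (1.08%).

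Serinc3, a protein that spans the membrane many times, had the largest difference after the targeted genes. On 8 of 9 Rb1;p130 DKO arrays its signal was 18560 to 24250, and on array 3 it was 4735, within the range of p107;p130 DKO livers (3619, 3856 and 4931). The difference was 2.12 ± 0.27 (adjusted p = 1.50e-05) and 2.36 ± 0.21 without array 3 (3.71e-09). In the other genotypes that have p107, signals were 16960 to 24040 in p130 KO livers, 13920 and 21640 in Rb1 KO livers and 15310 and 19980 in wild type livers. In those that lack p107, they were 3746 to 5610 in Rb1;p107 DKO livers, 4032 in the p107 KO liver and 3537 to 5548 on 5 TKO arrays, while TKO array 1 had 17090. All 6 Serinc3 probe sets were higher in livers lacking Rb1 and p130, by 1.87 to 4.37. Rbl1 itself was at least 1306 on every Rb1;p130 DKO array, array 3 included, and at most 139.4 on every TKO array.

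Pkig, an inhibitor of protein kinase A beside Serinc3, had signals of 1577, 4076 and 6010 in livers lacking Rb1 and p130, against 1653, 1989 and 2331 in livers lacking p107 and p130. Array 3 was the lowest of the Rb1;p130 DKO arrays, and array 1 of the TKO group, at 3582, stood above the other TKO arrays. The call (0.91 ± 0.22, adjusted p = 0.0338) ended in 11 of 15 fits without 1 array (up to 0.10) and with sex in the fit (0.0538). Sdc4, a heparan sulfate proteoglycan of the cell surface, had signals of 122.7 to 236.8 on arrays 1, 6, 7, 8 and 9 of the Rb1;p130 DKO group and 965.3 to 1402 on arrays 2 to 5, against 1148, 1521 and 2926 in livers lacking p107 and p130. Its difference was -2.02 ± 0.46 (adjusted p = 0.0218) and -0.87 within the first array group (0.434), and the call ended without array 5 or array 6 of the p107;p130 DKO group (up to 0.0826). A second Sdc4 probe set went the other way, with a log2 difference of 0.77. Stk4, a kinase of the Hippo pathway, had signals of 2434, 2935 and 3367 in livers lacking Rb1 and p130, against 3729, 4005 and 4959 in livers lacking p107 and p130, without overlap (-0.53 ± 0.11, adjusted p = 0.00697).

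**Figure D5:**
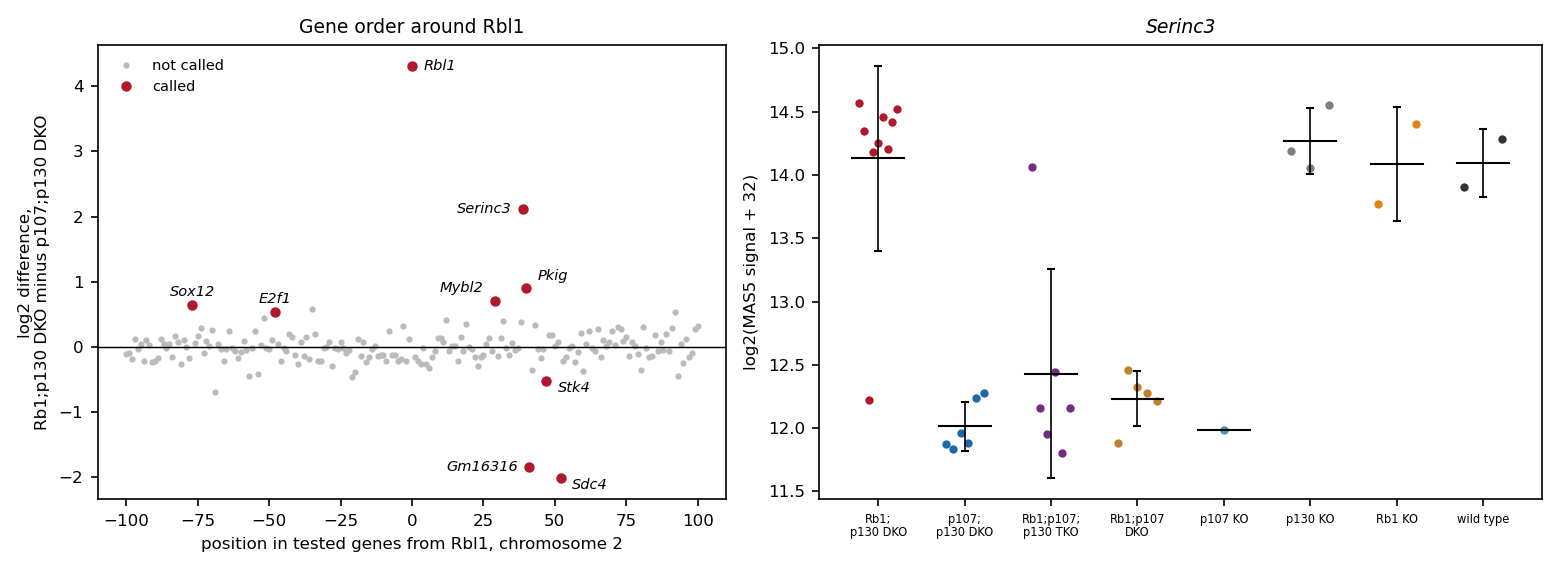
Left, log2 difference (Rb1;p130 DKO minus p107;p130 DKO) of genes by their place in tested genes from Rbl1 on chromosome 2, with called genes in red. Right, Serinc3 on the log2(signal + 32) scale in all 8 genotypes, with arrays as points, means as lines and SDs as bars: arrays of genotypes lacking p107 lie low apart from 1 TKO array, and those of genotypes with p107 lie high apart from 1 Rb1;p130 DKO array.

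Other probe sets of the called genes were read as a check on the choice of the brightest. At a mean log2 signal of at least 8 in either group, 65 further probe sets were found for 44 of the genes, and 60 of them differed in the same direction, while 48 of the 65 had a smaller difference in size than the probe set used. A second E2f1 probe set differed by 0.73, a second Mybl2 probe set by 0.58, a second Zfp367 probe set by 0.88, and a dimmer Cdkn1a probe set, with medians of 146.8 in livers lacking Rb1 and p130 and 35.04 in livers lacking p107 and p130, by 1.5. Some rises and some falls were smaller, or went the other way, on another bright probe set. Among the rises, Arhgef12 at 0.52 had one that differed by 0.03, and Nr2c2 at 0.38 one that differed by 0.02. Ddx6, Kmt5a and Nr3c1, at 0.44, 0.52 and 0.56, each had one that fell, by -0.13, -0.22 and -0.08. Second probe sets of Utp15 and Twf2 each differed by -0.11, against -0.59 and -0.47, and one of Stk4 by -0.24, against -0.53. For Tmem109, at -0.47, 2 other bright probe sets differed by -0.11 and -0.45.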

How the data were processed

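The values were deposited by the authors as linear MAS5 signal intensity per probe set, made with MAS5 in GCOS 1.4 per the submitters' processing notes. The 2% trimmed means as deposited were 495.4 to 497.7 per array. Of 45037 probe sets, 34945 matched 1 gene symbol through the platform annotation and the RefSeq gene table, 932 several and 9160 none, and those with 1 were used. Each array was scaled so that its trimmed mean was 500, and log2(signal + 32) was taken. Each of 18193 genes was represented by its brightest probe set, and the tests took the 12719 that reached 100 on 2 or more arrays.

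limma 3.58.1 in R 4.3.3 (lmFit, contrasts.fit, eBayes with trend, two-sided) fitted 1 mean per genotype to all 34 arrays, so the spread is shared by the 8 genotypes. P-values were adjusted by Benjamini-Hochberg over all genes tested, with calls at under 0.05. The additive fit used the 19 other arrays. Promoters on chromosome 18 were not used here. Array groups were found by average-linkage clustering (scipy 1.17.1) of differences between 2 probe sets of the same gene over 2996 genes. Replicate numbers did not pair the samples: same-numbered arrays had correlations of deviations of -0.29 to 0.14. Data were simulated with 100 genes changed per size and noise drawn separately for each gene and array, without array groups or sex. The fit recovered 30% of genes changed by 0.5 and 87% of those changed by 1 on the log2 scale. It made 7 false calls among the unchanged genes of the 12719. The real groups differ in array group and sex, so these rates need not hold for them. For arrays, their number limits the precision.

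Genes named were every probe set of the 3 targeted genes, up to 15 largest rises and 15 largest falls among called genes whose log2 signal averaged 8 or more, up to 4 members of each of 31 lists by size of the test statistic, and up to 5 called genes on each side of a targeted gene within 25 tested genes. Other genes are identified where they appear or are list members. The members, lists and tests were chosen with earlier results of these data known.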

Additional observations from a re-analysis of the deposited data

Results flagged for a closer look

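In 17 of 288 sets of arrays (144 genes named by the rule, in each of the 2 genotypes), 1 array lay far from the rest of its genotype, where chance gives about 1 in 20. Values are log2(signal + 32). Array 9 of the Rb1;p130 DKO group accounted for 6. It was low for Prr13 (10.88, next array 11.5), Cdkn2d (12.31, next 13.06), Nusap1 (12.33, next 12.8) and Jak2 (10.09, next 11.11), and high for Cdkn1c (12.35, next 11.38) and Cycs (14.99, next 14.63). Without that array the difference was 0.61 for Cdkn2d (limma adjusted p = 8.54e-04) and -0.76 for Cdkn1c (0.00441), which were not called with it (0.0568 and 0.118), and -0.46 for Prr13 (0.0146). The same array had the lowest median correlation with the other arrays of both groups together, and its part in these values beyond the fits without it was not tested.

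In the Rb1;p130 DKO group, Serinc3 was low on array 3 (12.22, next 14.18), Klf10 was low on array 6 (10.2, next 10.52) and E2f5 was high on array 5 (10.87, next 9.95). In the p107;p130 DKO group, Cdkn1a was low on array 3 (7.34, next 7.98), and the difference without it was 0.87 (adjusted p = 0.00854). Fhl1 was high on array 4 (9.91, next 9.47), Ston2 was low on array 2 (8.87, next 9.25), Siah1a was high on array 1 (10.64, next 10.33) and Cpa3 was high on array 3 (8.97, next 8.33). Cycs (13.82, next 14.53) and Cd48 (8.22, next 8.6) were low on array 4, and Cox6c was low on array 5 (13.6, next 13.79). Serinc3, Klf10, Fhl1, Ston2 and Siah1a kept their calls without the array concerned.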

How the results depend on the processing

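The 95 genes called (75 higher, 20 lower) changed by over 1.5 times in total or in one direction under these settings: array group block, 210 (165 higher, 45 lower); array group and sex, 119 higher; array weights, 396 (250 and 146); a 2-fold minimum, 14 (8 and 6); without arrays 8 and 9 of the Rb1;p130 DKO group, 151 (44 lower); within the third array group, 3 (2 and 1), where fewer arrays enter. The falls alone numbered 12 with the mean of all probe sets, 13 without the filter on low signal, 10 with only the 15 arrays and 13 with sex. Leaving out 1 array gave 54 to 143 genes, 45 to 102 higher and 6 to 41 lower. A replicate block, for numbers that do not pair the samples, gave 179 genes (113 and 66), of which 72 were among the 95; 1 of 6 same-numbered pairs correlated best with its own number. Both pseudocounts, quantile normalization, robust moderation, moderation without the trend and the stricter filter kept the total and both directions within 1.5 times. All 95 kept their sign in each setting that gave them a value, except Tff3 within the third array group (-0.03). The settings reuse the arrays that chose the genes, so the kept signs give no separate support.

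On the 19 other arrays, with 29 genes called for the Rb1 term, 16 for the p107 term and 4 for their difference, the array group block gave 71, 4 and 8. The difference had 9 with a pseudocount of 1, 9 after quantile normalization and 8 with sex, and the p107 term 30 after quantile normalization. Leaving out 1 array gave 1 to 31 for the Rb1 term, 1 to 28 for the p107 term and 1 to 7 for the difference. The cause of these changes was not tested. The 95 genes were also followed over the settings of the Rb1;p130 DKO against p107;p130 DKO comparison. There, 2382 values kept direction and side of the threshold, 651 kept direction but lost the call, and 1 reversed. Signals near 100 lie close to background, which limits dim genes such as Klf5 and the lymphoid markers.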
